A study of Mus musculus with 10 samples.

Results

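Fap-null and wild-type female FVB mice were compared on a low-fat diet, by total RNA sequencing of the inguinal subcutaneous mammary fat pad. The comparison rests on 5 of the 10 libraries of the series, 2 from wild-type pads and 3 from null pads, and covers the 15780 of 30319 genes that reached 1 TPM in at least 2 of these 5 libraries. TPM values give the share of each transcript in its library, corrected for transcript length. The mice of both genotypes received a diet with 10% of calories from fat from 12 to 30 weeks of age. The other 5 libraries of the series (2 wild-type, 3 null) come from mice of the same strain, sex and age on an ingredient-matched diet with 60% of calories from fat. The labels give the genotype as wild type or null and name neither the allele nor the disrupted part of the gene, and no source used here says how many animals stand behind a library.

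Fibroblast activation protein is a membrane serine protease that cleaves after proline, releases and processes fragments of collagen, and is best known from activated fibroblasts of wounds, scars and tumours. The mammary fat pad is a mixed tissue. Adipocytes fill most of it, and the epithelial ducts, made of an inner luminal and an outer basal layer, run through a stroma of fibroblasts, vessels, macrophages and nerves. The title of the series asks how the protease bears on the formation of adipocytes and on mTOR signalling, the nutrient-sensing kinase pathway, through the matrix.

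The number of genes at 1 TPM or more ran from 14574 to 15700 over the libraries, and the depth behind the values is unknown because TPM keeps no read numbers. Adipocyte markers were abundant in all 5 libraries, with Fabp4, the fatty acid carrier of fat cells, at 8684 to 15707 TPM. The skin keratin gene Krt1 stayed at or below 0.182 TPM. The libraries differed within their groups. Null library 3 lay at 61.8 on the principal component with the most variance (36.0%), against -38.1 to 13.4 for the other 4, and wild-type library 2 had the largest share of mitochondrially encoded transcripts, 13.8% of TPM against 6.28% to 10.6% elsewhere. With 2 libraries against 3, an exact two-sided permutation test of a single gene cannot go below p = 0.2, so the tests below are those of limma, which borrows the spread of all genes. P values measure the spread between these libraries. In the sentences below, library values are given in the order 1 and 2 for wild type, then, after the word against, 1, 2 and 3 for null. Differences are null minus wild type on the log2(TPM + 1) scale, and a gene is said to have risen or fallen only at a limma adjusted p of at most 0.05.

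Fap itself measured 45.4 and 39.2 TPM in the wild-type libraries and 18.4, 22.4 and 18.3 TPM in the null libraries. All null libraries lay below both wild-type libraries, and the transcript was present in each of them. The log2 difference was -1.07 (SE 0.19, limma adjusted p = 0.508), and on the high-fat diet it was -0.82. The other 8 tested genes of the prolyl peptidase family, most of which encode enzymes that trim peptides next to proline, overlapped between the genotypes. The family as a whole, Fap included, had a median difference of 0.012, against 0.148 over all genes tested.

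One gene passed the test over all genes, 0.00634% of those tested. Gm10146, a processed pseudogene on chromosome 10, fell in null pads, from 27.8 and 24.2 TPM to 0.000991, 2.59e-05 and 0 TPM (log2 difference -4.75, SE 0.27, limma adjusted p = 0.0195). It was present at 26.0 TPM on average in the wild-type libraries, and its values are uncertain, since reads of a processed copy can be assigned to its parent gene. On the high-fat diet its difference was -0.05 and its groups overlapped. Leaving out any 1 of the 5 libraries ended this call, with adjusted p from 0.0563 to 0.472.

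At an unadjusted p under 0.05, 888 genes lay higher and 257 lower, 5.63% and 1.63% of the genes tested. The groups did not overlap for 3118 genes with higher null values (19.8%) and for 1028 with lower null values (6.51%). This excess of higher values goes with a shift of the whole scale, because the median gene differed by 0.148. After median-of-ratios scaling, which sets the typical gene of each library equal, the median was 0.006, 546 genes lay higher and 527 lower at p under 0.05, and 12.2% and 12.8% of genes did not overlap. The gene groups below are therefore read against 0.148, with the rescaled median beside them where it matters.

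**Figure D1:**
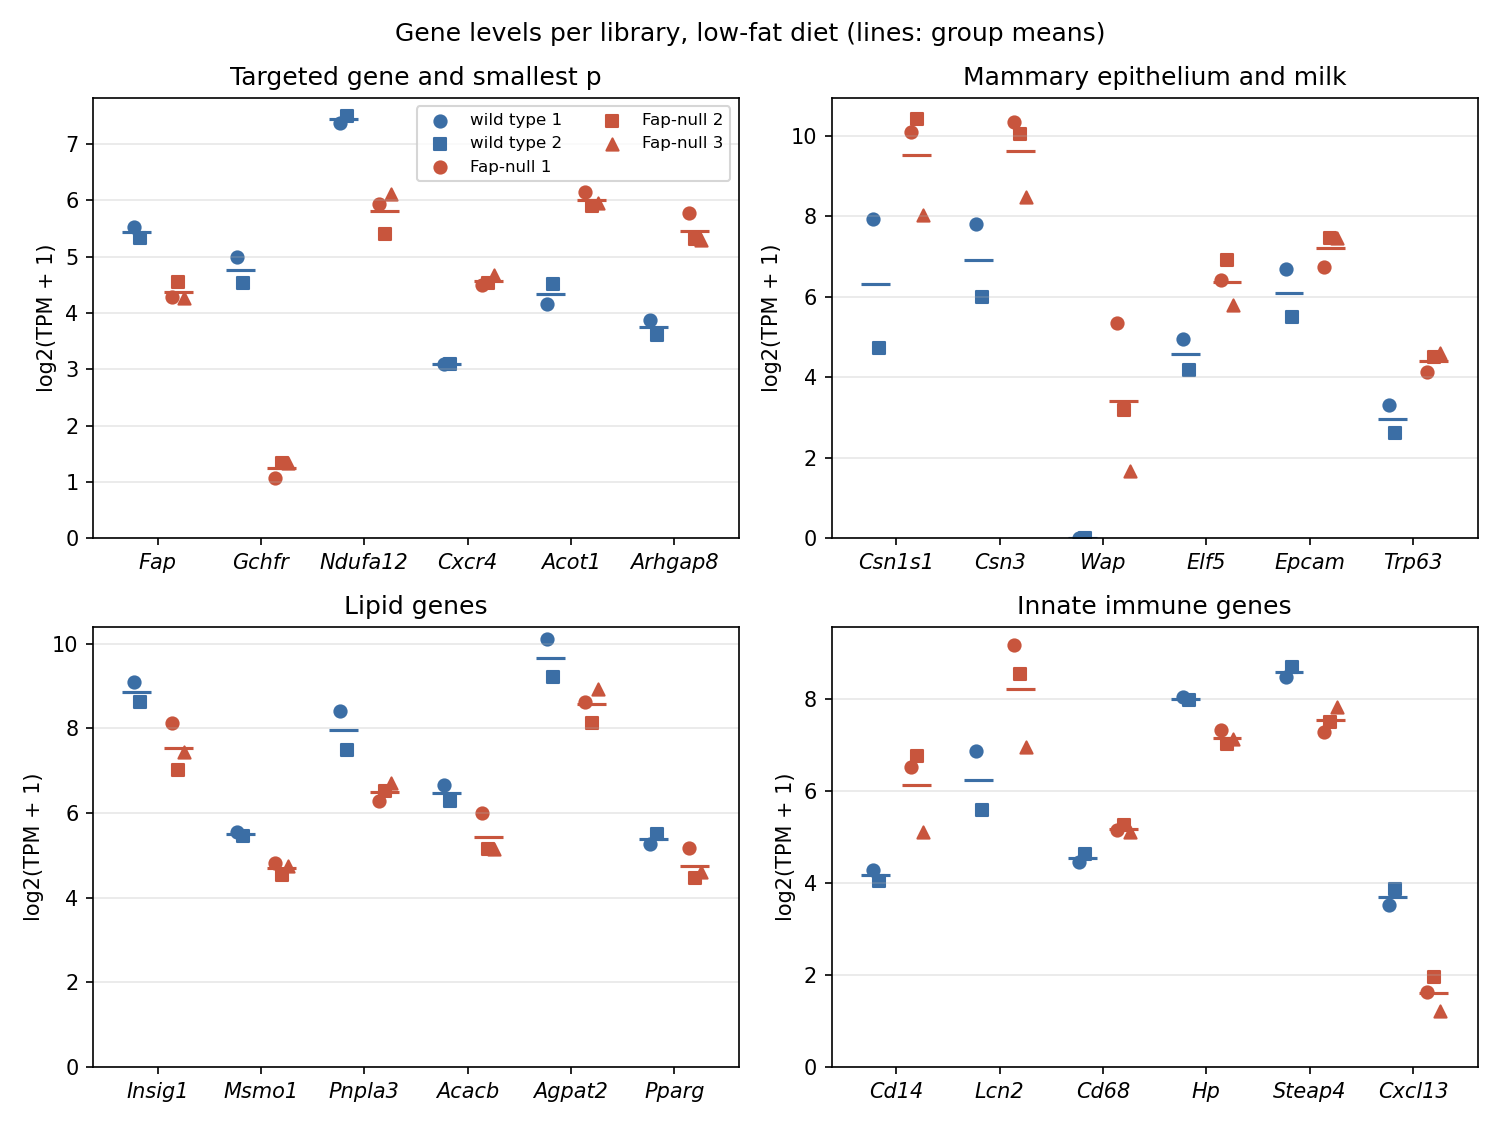
Level of 24 genes on the log2(TPM + 1) scale in each low-fat library, with wild-type libraries in blue, null libraries in red and a line at each group mean. For each gene drawn the wild-type and null points do not overlap, as for Fap at 45.4 and 39.2 against 18.4 to 22.4 TPM, while milk genes such as Csn1s1 also spread widely within each genotype.

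Among annotated genes the smallest p values belonged to genes of unlike function. Gchfr encodes the feedback regulator of GTP cyclohydrolase, the enzyme that starts tetrahydrobiopterin synthesis, and measured 30.8 and 22.2 TPM against 1.10, 1.54 and 1.52 TPM (log2 difference -3.52, SE 0.27, limma adjusted p = 0.0659). The gap between the groups was many times the spread within them. It passed after median-of-ratios scaling (adjusted p = 0.0286), without the mean-variance trend (0.0275) and with library weights (0.0372). Gchfr was also lower in every null library on the high-fat diet, at 11.8, 1.09 and 1.91 TPM against 31.9 and 12.3 TPM. It lies on chromosome 2 (GRCm38, 119167773 to 119172390), which also carries Fap at 62500943 to 62574075.

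Hax1, whose product protects mitochondria and cells from apoptosis, was close to 0 in wild type, at 0.00141 and 0.0689 TPM, and measured 27.1, 23.2 and 10.4 TPM in null pads (log2 difference 4.26, SE 0.43, limma adjusted p = 0.128). Ndufa12, an accessory subunit of respiratory complex I, measured 165 and 180 TPM against 60.3, 41.3 and 68.4 TPM (-1.62, SE 0.25, adjusted p = 0.319). Neither gene overlapped on the high-fat diet, with differences of 1.44 and -1.01 in the same directions. Values near 0 in one genotype were also listed for other genes. Zfp781, a zinc-finger gene, was listed at 0 in both wild-type libraries and at 4.22, 8.51 and 8.11 TPM in null libraries. The immunoglobulin light chain segment Igkv3-5 measured 5.60 and 5.71 TPM in wild type and was listed at 0 in the 3 null libraries. On the high-fat diet the groups overlapped for Zfp781 and Igkv3-5. Whether reads of Hax1, Zfp781 or Igkv3-5 were assigned to similar sequences was not tested.

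Acot1, a cytosolic thioesterase that splits acyl-CoA, measured 16.9 and 21.8 TPM against 69.9, 58.8 and 60.9 TPM (log2 difference 1.66, SE 0.20, limma adjusted p = 0.169). It has a near-identical neighbour, so its share of reads is uncertain. The chemokine receptor gene Cxcr4 measured 7.56 and 7.51 TPM against 21.6, 22.2 and 24.4 TPM (1.47, SE 0.19, adjusted p = 0.224). Arhgap8, a gene of a GTPase-activating protein, measured 13.7 and 11.2 TPM against 54.0, 38.8 and 38.3 TPM (1.72, SE 0.23, adjusted p = 0.236). Tyro3, a receptor tyrosine kinase that binds the bridging proteins of dying cells, measured 3.27 and 3.05 TPM against 10.4, 13.3 and 13.3 TPM (1.67, SE 0.24, adjusted p = 0.284). None of these 4 passed the test, although the values within each genotype lay close together. On the high-fat diet their groups overlapped, with differences of -0.82, -0.32, -0.44 and 0.24.

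The groups were described further with 47 gene lists, of which 833 members were tested. No member passed over all genes, where the lowest adjusted p was 0.261 for Glycam1, so each list below is described by its counts and its median. The background for these counts is that 67.4% of all genes lay higher and 32.6% lower, and that 19.8% did not overlap on the higher side and 6.51% on the lower side. After median-of-ratios scaling 11 list medians between 0.012 and 0.15 turned below 0, those of hormone-sensing, neutrophil, interferon, complement, matrix glycoprotein, prolyl peptidase, progenitor, mTOR, ATF4, glucocorticoid and TGF-beta genes.

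The widest difference was in the genes of the secretory epithelium. Luminal alveolar cells make milk proteins under the control of prolactin, STAT5 and the transcription factor ELF5, and in a virgin or resting gland their output is low. Of 22 tested members of the secretory and milk list, 20 lay higher in null pads and 11 did not overlap, against 67.4% and 19.8% of all genes. The median difference was 2.00, against 0.148 over all genes tested, and 1.87 after median-of-ratios scaling. In a bulk sample, more cells of a type and more RNA per cell cannot be told apart.

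Csn1s1, the gene of alpha-S1-casein, measured 243 and 25.4 TPM against 1084, 1367 and 261 TPM (log2 difference 3.18, SE 1.07, limma adjusted p = 0.671). Csn2, the gene of beta-casein, measured 79.4 and 7.12 TPM against 717, 594 and 89.0 TPM (3.72, SE 1.21). Null libraries 1 and 2 were far above the rest, wild-type library 2 far below, and null library 3 only just above wild-type library 1. Wap, the gene of whey acidic protein, was listed at 0 in both wild-type libraries and at 40.0, 8.07 and 2.21 TPM in null libraries. Glycam1, which encodes a mucin-like protein of milk and of lymph node venules, measured 0 and 0.266 TPM against 22.9, 49.4 and 10.1 TPM.

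Genes that mark the secretory lineage rather than milk itself were again highest in null libraries 1 and 2. Wfdc18, a secreted whey-type protease inhibitor gene, measured 171 and 52.6 TPM against 523, 607 and 325 TPM (log2 difference 2.29, SE 0.52, limma adjusted p = 0.587). Folr1, a folate receptor gene, measured 9.05 and 7.14 TPM against 58.0, 54.5 and 15.4 TPM (2.06, SE 0.57). Muc15, a membrane mucin gene, measured 62.9 and 24.8 TPM against 124, 287 and 100 TPM (1.92, SE 0.55). The osteopontin gene Spp1, made by luminal cells and by macrophages, was high in null library 1 at 2926 TPM, but its groups overlapped, since null library 3 (177 TPM) lay below wild-type library 1 (197 TPM).

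Because milk genes were high and low in the same libraries, their start regions were searched for the motif of STAT5, the prolactin-responsive factor. The search used TTCNNNGAA, which reads the same on both strands, in the 250 bases before each start in RefSeq (GRCm38.p6). It was found in 3 of the 16 tested members of the secretory and milk list that the table holds (18.8%), and in 7.38% of the 10714 tested genes in the table. The members with a match are shown, and that window of Wap held none. Capitals mark the match in the 250 bases before the starts of Csn1s1 (chr5:87665958-87666207, plus strand), Csn2 (chr5:87699426-87699675, minus strand) and Glycam1 (chr15:103565082-103565331, minus strand).
Csn1s1: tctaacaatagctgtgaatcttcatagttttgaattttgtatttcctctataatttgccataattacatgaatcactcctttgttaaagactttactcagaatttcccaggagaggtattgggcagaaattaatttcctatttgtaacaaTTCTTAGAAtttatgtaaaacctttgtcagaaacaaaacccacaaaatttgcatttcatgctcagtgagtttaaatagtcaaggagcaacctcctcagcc
Csn2: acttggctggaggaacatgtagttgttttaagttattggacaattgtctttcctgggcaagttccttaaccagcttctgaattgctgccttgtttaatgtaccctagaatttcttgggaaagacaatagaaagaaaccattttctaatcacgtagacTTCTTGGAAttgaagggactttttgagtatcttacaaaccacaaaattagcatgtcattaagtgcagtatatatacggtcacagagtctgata
Glycam1: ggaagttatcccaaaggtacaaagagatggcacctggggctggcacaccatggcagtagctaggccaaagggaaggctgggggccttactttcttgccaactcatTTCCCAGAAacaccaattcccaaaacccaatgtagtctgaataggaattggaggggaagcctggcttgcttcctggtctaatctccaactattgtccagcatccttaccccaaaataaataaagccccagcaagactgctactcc
The match begins 100, 93 and 145 bases before the start, in that order. The letters describe the sequence and do not show that a factor was bound there.

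Structural genes of the luminal layer also lay higher, by less. All 19 tested members of the luminal structure list were higher in null pads and 9 did not overlap, against 67.4% and 19.8% of all genes. The median difference was 1.10, and 0.96 after median-of-ratios scaling. Spint2, a membrane inhibitor of serine proteases, measured 16.9 and 11.7 TPM against 29.0, 39.4 and 34.5 TPM (log2 difference 1.22, SE 0.24, limma adjusted p = 0.562). Cldn3, a tight junction claudin gene, measured 20.7 and 9.31 TPM against 29.0, 55.3 and 40.5 TPM (1.46, SE 0.40). Epcam, the epithelial adhesion gene, measured 103 and 44.5 TPM against 106, 174 and 175 TPM (1.12, SE 0.40), so null library 1 was level with wild-type library 1. Wild-type library 2 was low throughout: without it the median of the list was 0.40 and 16 of 19 members were higher.

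Basal genes lay higher in 13 of 14 cases and 6 did not overlap, against 67.4% and 19.8% of all genes. Their median was 0.73, with 1.35 without wild-type library 1 and 0.46 without wild-type library 2. Trp63, the transcription factor p63 that maintains the basal layer, measured 8.85 and 5.15 TPM against 16.5, 21.5 and 23.2 TPM (log2 difference 1.45, SE 0.29, limma adjusted p = 0.562). Lgals7, a galectin gene of stratified and basal epithelium, measured 2.95 and 1.22 TPM against 10.7, 24.1 and 48.9 TPM (3.05, SE 0.61). Jag2, a Notch ligand gene, and Lamb3, a laminin-332 chain gene, differed by 0.74 and 0.53 without overlap. In these basal genes null library 3 was not low, unlike in the milk genes.

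The hormone-sensing luminal genes did not share this pattern. Of 14 members 8 lay higher, against 67.4% of all genes, and the median was 0.15. On the higher side 3 did not overlap and on the lower side 1, against 19.8% and 6.51% of all genes. Esr1, the oestrogen receptor gene, was the lower one, at 43.6 and 57.2 TPM against 35.3, 29.3 and 34.7 TPM (log2 difference -0.58, SE 0.20, limma adjusted p = 0.671). Fgg, the fibrinogen gamma chain gene, was among the higher ones, at 4.50 and 4.84 TPM against 10.9, 30.5 and 10.3 TPM (1.51, SE 0.47). Esr1 is also expressed by stromal and fat cells, so its level is not a measure of ducts alone.

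Skeletal muscle genes, which do not belong to the fat pad proper, moved in the same libraries as the milk genes. All 20 members of the muscle list lay higher and 10 did not overlap, against 67.4% and 19.8% of all genes (median difference 1.21). Their summed level was 4415 and 3019 TPM against 13828, 10907 and 4973 TPM in null libraries. The summed milk list was 1766 and 571 TPM against 11252, 7652 and 1804 TPM, so in both lists null libraries 1 and 2 were high, null library 3 intermediate and wild-type library 2 lowest. Ckm, the muscle creatine kinase gene, measured 225 and 120 TPM against 944, 633 and 342 TPM, and Actn3, a fast-fibre alpha-actinin gene, 48.4 and 26.6 TPM against 247, 143 and 78.2 TPM. How much of the milk gene difference goes with the make-up of the dissected tissue was not tested.

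**Figure D2:**
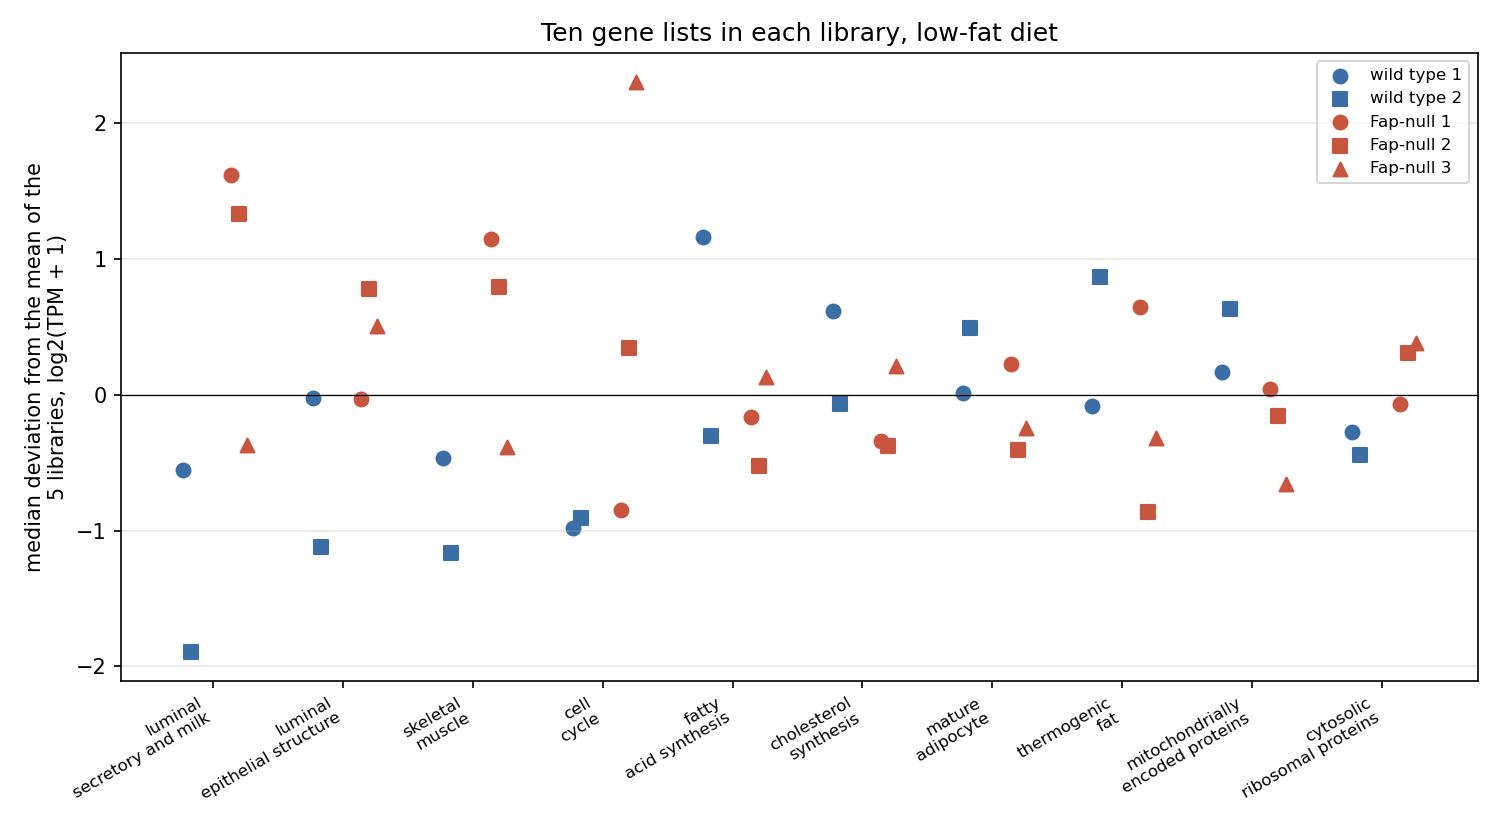
Median deviation of the members of 10 gene lists from their 5-library mean, in log2(TPM + 1), with 1 point per library (wild type blue, null red). Null libraries 1 and 2 are high in the secretory and muscle lists (1.62 and 1.33, 1.14 and 0.80), null library 3 is high in the cell cycle list (2.31) and wild-type library 1 is high in the fatty acid synthesis list (1.16).

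Fat cell genes lay on the other side of the scale shift. Mature adipocyte genes were lower in null pads for 22 of 26 members and 7 did not overlap on the lower side, against 32.6% and 6.51% of all genes. Their median difference was -0.395 (-0.554 after median-of-ratios scaling). It was -0.175 without wild-type library 2, -0.248 without null library 2 and -0.633 without wild-type library 1, and the summed level overlapped, at 30869 and 44721 TPM against 35586, 21531 and 25495 TPM. Agpat2, an acyltransferase of triglyceride synthesis whose loss causes lipodystrophy, measured 1109 and 593 TPM against 394, 279 and 489 TPM (log2 difference -1.10, SE 0.36, limma adjusted p = 0.671). Pparg, the master regulator of fat cell formation, measured 37.3 and 44.6 TPM against 35.1, 21.0 and 23.5 TPM (-0.64, SE 0.26, adjusted p = 0.678). Null library 1 lay only just below wild-type library 1 for Pparg, and the other 2 null libraries lay clearly below.

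The hormones of fat cells gave a similar picture. Lep, the gene of leptin, measured 387 and 507 TPM against 133, 342 and 346 TPM (log2 difference -0.82, SE 0.45), and Retn, the gene of resistin, 726 and 549 TPM against 440, 222 and 483 TPM (-0.80, SE 0.38). Neither passed the test, with limma adjusted p of 0.703 and 0.69. Adipoq, the gene of adiponectin, overlapped between the groups at 1772 and 3206 TPM against 2590, 1696 and 2091 TPM. The 4 mature adipocyte genes on the higher side, Plin1, Plin4, Pck1 and Lipe, overlapped, with differences of 0.40, 0.28, 0.28 and 0.09. In a bulk sample, the number of adipocytes and the RNA per adipocyte cannot be told apart.

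Regulators of adipogenesis were divided. The list had a median of -0.14. Among 20 members 2 did not overlap on the higher side and 4 on the lower side, against 19.8% and 6.51% of all genes. Igf1, the growth factor that drives fat precursor growth, measured 152 and 261 TPM against 116, 87.1 and 116 TPM (log2 difference -0.91, SE 0.28, limma adjusted p = 0.671). Klf15, a pro-adipogenic and fasting-responsive factor, measured 15.5 and 14.2 TPM against 1.30, 9.22 and 11.2 TPM (-1.26, SE 0.71), where null library 1 makes most of the difference. Klf5, an early adipogenic factor also found in epithelium, was low and on the higher side, at 0.911 and 1.16 TPM against 2.38, 3.72 and 2.86 TPM. Fibroblast and adipocyte progenitor genes had a median of 0.14, against 0.148 over all genes. Of 22 members 16 were higher, against 67.4% of all genes.

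Genes of sterol synthesis lay lower as a group. These genes are switched on by SREBP2 when a cell lacks cholesterol, and INSIG1 holds that switch back. Of 24 tested members 20 were lower and 4 did not overlap on the lower side, against 32.6% and 6.51% of all genes. The median difference was -0.504, and -0.66 after median-of-ratios scaling. Insig1 measured 545 and 390 TPM against 280, 127 and 173 TPM (log2 difference -1.32, SE 0.36, limma adjusted p = 0.664). Null library 1 was the nearest of the null libraries to wild type for Insig1, and null library 2 the farthest.

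Msmo1 and Sc5d, late enzymes of the sterol pathway, lay lower too. Msmo1 measured 45.8 and 42.7 TPM against 27.0, 22.0 and 26.0 TPM (log2 difference -0.80, SE 0.18, limma adjusted p = 0.587). Sc5d measured 145 and 114 TPM against 60.4, 69.1 and 85.2 TPM (-0.85, SE 0.22). The median of the list was -0.115 without wild-type library 1 and -0.844 without wild-type library 2.

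Fatty acid synthesis genes depended on a single library. The list was lower for 20 of 21 members (median difference -0.431), but its summed level was 49331 TPM in wild-type library 1, 20623 TPM in wild-type library 2, and 25241, 20181 and 26031 TPM in null libraries. Without wild-type library 1 the median turned to 0.13, and without wild-type library 2 it was -1.28. Pnpla3, a gene of lipid remodelling that follows carbohydrate feeding, did not overlap, at 341 and 179 TPM against 76.6, 90.9 and 104 TPM (log2 difference -1.45, SE 0.31, limma adjusted p = 0.587). Mlxipl, the carbohydrate-sensing factor ChREBP, measured 66.0 and 41.2 TPM against 28.3, 29.2 and 31.4 TPM (-0.80, SE 0.24). Acacb, the mitochondrial acetyl-CoA carboxylase gene, measured 100 and 77.2 TPM against 62.6, 34.3 and 34.4 TPM (-1.05, SE 0.31).

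Genes that store or release triglyceride lay lower for 14 of 21 members, against 32.6% of all genes. Of the 21, 5 did not overlap on the lower side and 2 on the higher side, against 6.51% and 19.8% of all genes. Their median was -0.311, with -0.469 without wild-type library 1 and -0.096 without wild-type library 2. G0s2, an inhibitor of the lipase ATGL, measured 265 and 307 TPM against 231, 149 and 152 TPM (log2 difference -0.71, SE 0.25). Abhd5, the activator of the same lipase, differed by -0.48 (SE 0.22). Plin2, a lipid droplet coat gene of many cell types, lay on the higher side, at 486 and 380 TPM against 660, 555 and 615 TPM (0.50, SE 0.22). The limma adjusted p values of these 3 genes lay between 0.671 and 0.69.

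Genes of heat-producing fat were lower for 13 of 14 members and 2 did not overlap, against 32.6% and 6.51% of all genes. Their median was -0.644. Ppargc1a, the coactivator that drives mitochondrial growth, measured 13.7 and 44.7 TPM against 8.61, 6.37 and 5.29 TPM (log2 difference -1.76, SE 0.49, limma adjusted p = 0.664). Kcnk3, a potassium channel gene of thermogenic adipocytes, measured 22.5 and 18.7 TPM against 15.9, 8.55 and 11.4 TPM. Ucp1, the uncoupling protein gene that defines these cells, overlapped, at 153 and 860 TPM against 219, 56.1 and 125 TPM. Wild-type library 2 stood out for Ucp1, and without it the median of the list was -0.12, against -1.06 without wild-type library 1, -1.08 without null library 1 and -0.40 without null library 2.

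Fatty acid oxidation genes had a median of -0.296, which ran from -0.126 without wild-type library 2 and -0.15 without null library 2 to -0.546 without null library 1. The one member that did not overlap lay higher. It was Cpt1a, which encodes the gate enzyme for fatty acid entry into mitochondria, at 21.7 and 26.7 TPM against 33.7, 44.7 and 39.7 TPM (log2 difference 0.68, SE 0.21, limma adjusted p = 0.671). Cpt2 and Acadm, later steps of the same route, overlapped, with differences of -0.72 and -0.55. Nuclear genes of oxidative phosphorylation were lower for 28 of 30 members by small amounts (median -0.23, lowest -0.47), and 8 did not overlap, against 32.6% and 6.51% of all genes. Without null library 2 the median was -0.074 and 11 were higher, without wild-type library 1 it was -0.14, and without null library 1 it was -0.35. The 12 mitochondrially encoded proteins were lower throughout (median -0.674, 8 not overlapping), with mt-Nd5 at 1705 and 2526 TPM against 1377, 1457 and 933 TPM. With TPM recomputed after removing mitochondrially encoded transcripts, the number of genes that did not overlap on the higher side went from 3118 to 2479.

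**Figure D3:**
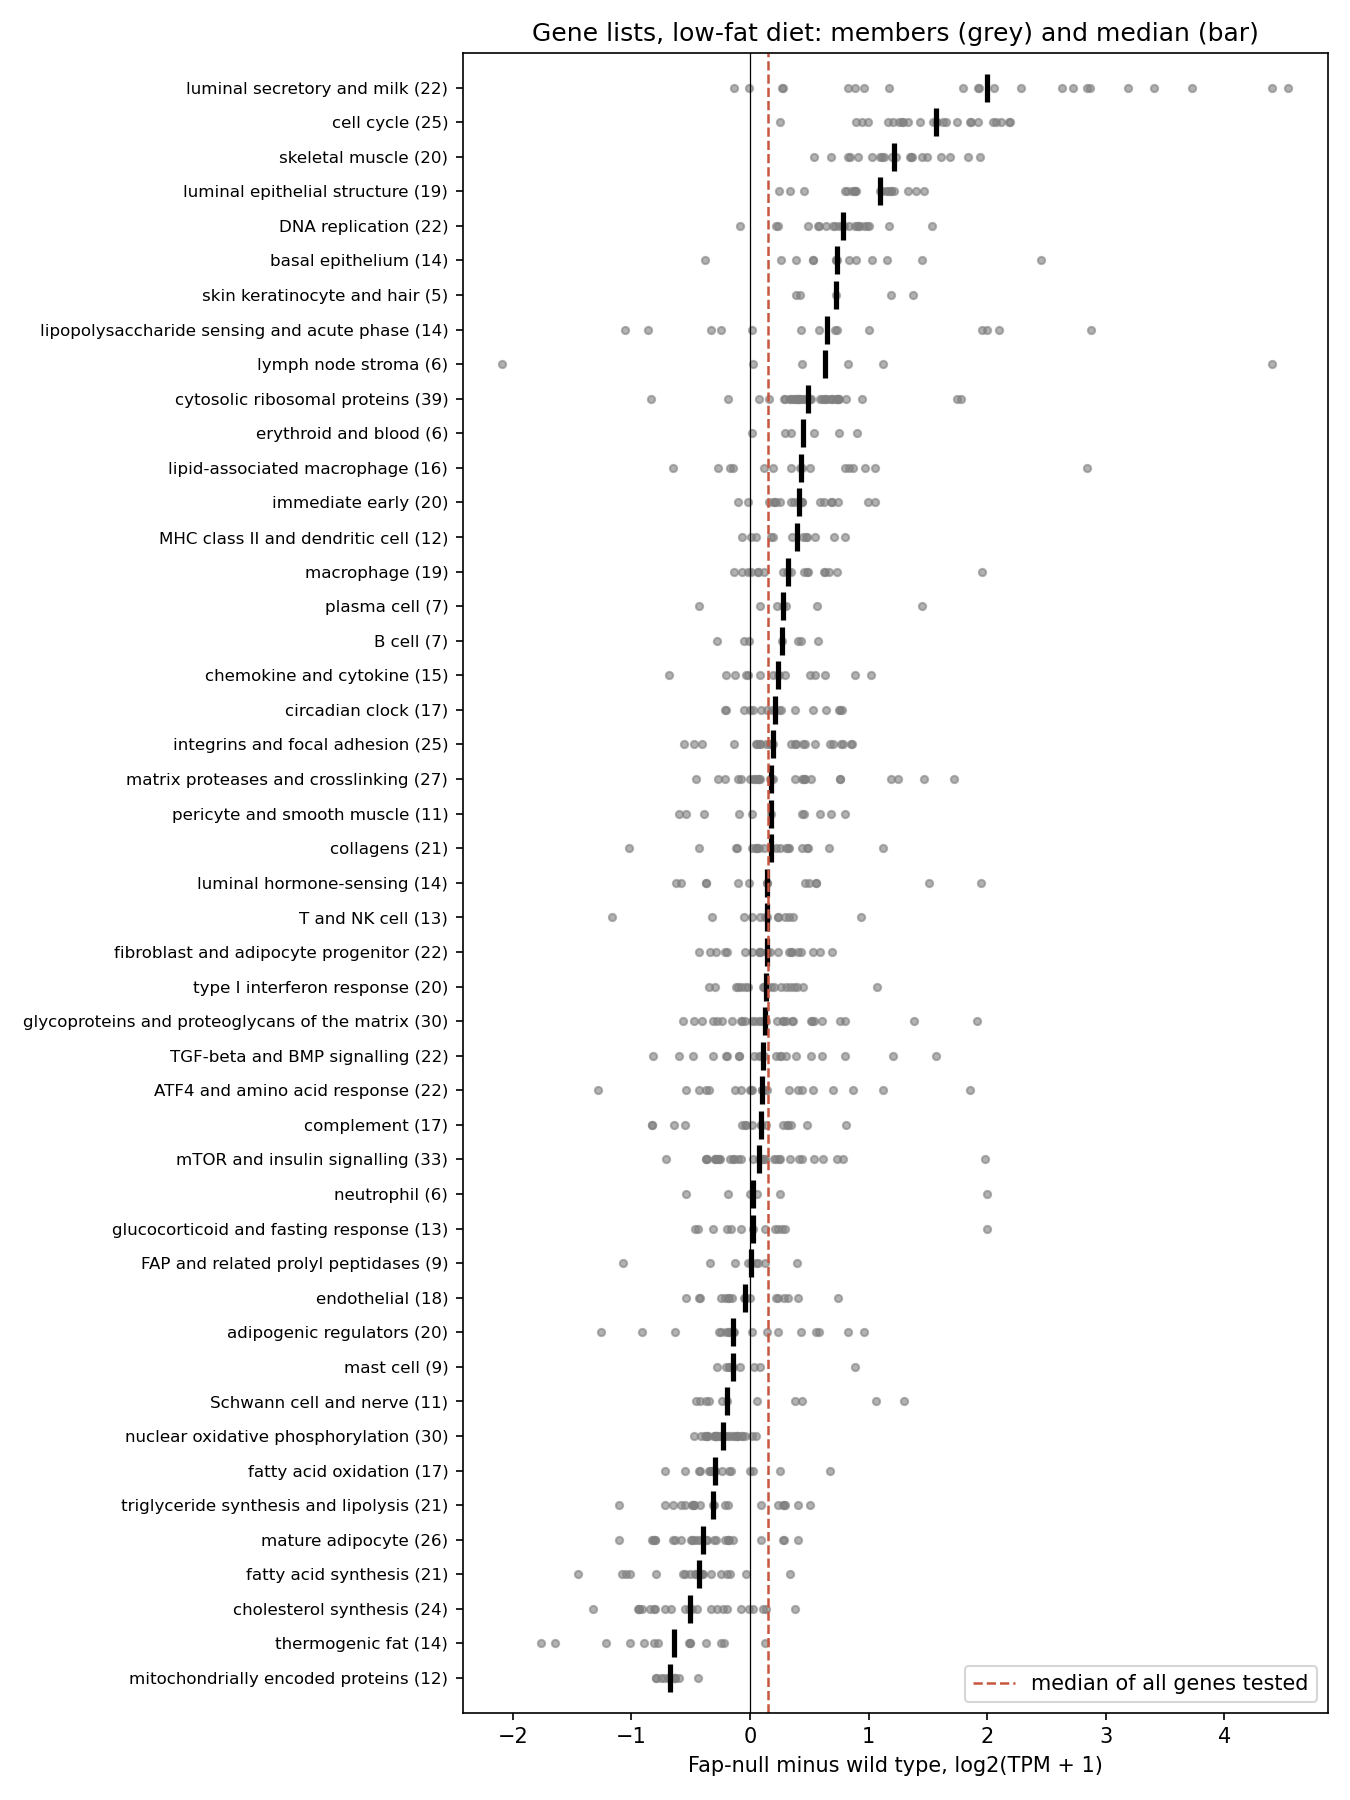
Differences between null and wild type on the log2(TPM + 1) scale for each tested member (grey) of the 47 gene lists, with the list median as a black bar, the number of members in brackets and the median of all genes (0.148) as a dashed line. The secretory list has the highest median (2.00) and the mitochondrially encoded list the lowest (-0.674), while matrix, progenitor and mTOR lists sit near the dashed line.

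Macrophage genes lay moderately higher. Of 19 tested members 16 were higher and 8 did not overlap, against 67.4% and 19.8% of all genes. The median was 0.324, and after median-of-ratios scaling it was 0.166 with 12 higher and 8 not overlapping. After that scaling 8016 of all 15780 genes lay higher, and 12.2% did not overlap on the higher side. Cd68, a lysosomal glycoprotein gene of macrophages, measured 21.1 and 23.7 TPM against 34.8, 37.6 and 33.4 TPM (log2 difference 0.63, SE 0.18, limma adjusted p = 0.664). C1qb, a complement chain gene of resident macrophages, measured 77.2 and 83.6 TPM against 99.3, 124 and 115 TPM (0.48, SE 0.18). Other genes of resident macrophages overlapped, with differences of -0.13 for Timd4, -0.07 for Cd163, 0.01 for Mrc1, 0.07 for Folr2 and 0.45 for Lyve1. Cd14, the lipopolysaccharide co-receptor gene, differed more, at 18.6 and 15.6 TPM against 90.4, 108 and 33.4 TPM (1.96, SE 0.49). Cd14 is also made by mammary luminal cells, and null library 3 was again the lowest of the null libraries.

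Genes of lipid-laden macrophages had a median of 0.43 (0.27 without wild-type library 2). Of 16 members 4 did not overlap on the higher side, against 19.8% of all genes, and Lpl, the lipoprotein lipase gene, did not overlap on the lower side. Trem2, their lipid receptor gene, measured 4.08 and 2.39 TPM against 5.38, 8.53 and 7.80 TPM (log2 difference 0.97, SE 0.32, limma adjusted p = 0.671) and did not overlap on the high-fat diet either. Ctsk, a collagen-degrading cathepsin gene counted among the matrix proteases, measured 29.0 and 31.1 TPM against 65.3, 104 and 56.3 TPM (1.24, SE 0.28, adjusted p = 0.587). Neutrophil genes S100a8 and S100a9 stayed at or below 3.80 TPM in all 5 libraries.

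Genes of lipopolysaccharide sensing and the acute phase went both ways. Of 14 members, 6 did not overlap on the higher side and 2 on the lower side, against 19.8% and 6.51% of all genes. Lcn2, the iron-trapping lipocalin gene, measured 116 and 47.1 TPM against 577, 373 and 123 TPM (log2 difference 2.00, SE 0.69), and Lbp, the lipopolysaccharide-binding protein gene, 30.2 and 20.7 TPM against 44.6, 75.4 and 39.6 TPM (1.00, SE 0.33). On the lower side, Hp, the haptoglobin gene, measured 262 and 252 TPM against 159, 128 and 138 TPM (-0.86, SE 0.18), and Steap4, a metalloreductase gene of fat cells, 356 and 416 TPM against 154, 181 and 225 TPM (-1.06, SE 0.23). The limma adjusted p values of these 4 genes were 0.671, 0.671, 0.587 and 0.587. Hp and Steap4 are made by adipocytes, while Lcn2 is also made by luminal epithelium.

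Among other immune genes, Cxcl13, the B cell chemokine gene, measured 10.4 and 13.7 TPM against 2.10, 2.87 and 1.34 TPM (log2 difference -2.09, SE 0.32, limma adjusted p = 0.319). Il33, an alarmin gene of stromal cells, measured 13.1 and 18.6 TPM against 26.8, 32.5 and 40.1 TPM (1.02, SE 0.26). Bst2, the tetherin gene induced by interferon, measured 22.3 and 30.3 TPM against 66.2, 60.0 and 43.8 TPM (1.07, SE 0.25), while the interferon list as a whole had a median of 0.13, below that of all genes. Serping1 and C3, the complement C1 inhibitor and the central complement component, lay lower, by -0.83 (SE 0.23) and -0.64 (SE 0.24). In the complement list 10 of 17 members lay higher, against 67.4% of all genes. Of the 17, 3 did not overlap on the higher side and 2, Serping1 and C3, on the lower side, against 19.8% and 6.51%. Immediate early genes were higher for 18 of 20 members, against 67.4% of all genes (median 0.417). Differences ran from -0.10 for Nr4a2 to 1.05 for Fos. Of the 20, 5 did not overlap on the higher side, against 19.8% of all genes, and 1, Nr4a2, on the lower side, against 6.51%. Junb, a subunit gene of the AP-1 factor, was one of the 5, at 15.6 and 9.43 TPM against 17.5, 26.7 and 17.4 TPM.

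Genes of the extracellular matrix stayed close to the scale shift. The 21 collagen genes had a median of 0.17 (0.016 after median-of-ratios scaling, 0.075 without wild-type library 1, 0.46 without null library 1 and -0.09 without null library 3). Of them 17 were higher, against 67.4% of all genes, and 1 did not overlap on each side, against 19.8% and 6.51%. Col16a1, a fibril-associated collagen gene, measured 60.2 and 39.4 TPM against 65.8, 148 and 126 TPM (log2 difference 1.12, SE 0.38), and Col6a5, a collagen VI chain gene, 3.05 and 1.16 TPM against 0.399, 0.593 and 0.379 TPM (-1.02, SE 0.40). Col1a1, a chain gene of the main fibrillar collagen, overlapped, at 388 and 453 TPM against 177, 711 and 467 TPM. Null library 1 was lowest and null library 2 highest for it.

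Single matrix genes differed more than their lists. Thbs1, the gene of thrombospondin-1, which activates latent TGF-beta, measured 13.6 and 35.2 TPM against 57.8, 126 and 86.4 TPM (log2 difference 1.92, SE 0.47, limma adjusted p = 0.587). Eln, the elastin gene, measured 5.42 and 4.98 TPM against 16.7, 26.6 and 7.69 TPM (1.39, SE 0.48, adjusted p = 0.671). Ogn, the osteoglycin gene, lay lower, at 121 and 132 TPM against 75.0, 108 and 76.1 TPM (-0.56, SE 0.22). Glycoproteins and proteoglycans as a list had a median of 0.13, with 5 of 30 not overlapping on the higher side and 3 on the lower side, against 19.8% and 6.51% of all genes.

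Integrin and focal adhesion genes, which connect cells to the matrix, lay higher for 21 of 25 members, against 67.4% of all genes. Their median was 0.20 (0.043 after median-of-ratios scaling, 0.38 without null library 1). On the higher side 7 did not overlap, against 19.8% of all genes, and 6 after scaling, against 12.2%. On the lower side 2 of the 25 did not overlap, against 6.51% of all genes, the integrin alpha chain genes Itga1 and Itga7. Itgav, the integrin alpha-V gene, measured 35.0 and 28.1 TPM against 48.4, 49.1 and 54.7 TPM (log2 difference 0.67, SE 0.19, limma adjusted p = 0.664), and Src, the kinase gene of focal adhesions, 9.86 and 7.01 TPM against 13.2, 17.4 and 14.8 TPM (0.79, SE 0.25). Of the TGF-beta and BMP list, Tgfb2, a ligand gene, differed by 1.57 (SE 0.52) and Ltbp2, a latent TGF-beta binding protein family gene, by -0.82 (SE 0.28), and the median over 22 members was 0.11.

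Genes of mTOR and insulin signalling, the pathway in the title of the series, had a median of 0.08, below the 0.148 of all genes, with 18 of 33 members higher. Of all 33, 7 did not overlap on the higher side and 4 on the lower side, against 19.8% and 6.51% of all genes. After median-of-ratios scaling these numbers were 5 and 7, against 12.2% and 12.8%. Mtor, the kinase gene itself, measured 23.8 and 22.8 TPM against 23.8, 19.8 and 20.0 TPM, a difference of -0.14 (SE 0.19). Akt1s1, an inhibitory partner of the mTOR complex, measured 19.6 and 17.8 TPM against 45.0, 25.3 and 28.0 TPM (0.74, SE 0.28, limma adjusted p = 0.676). Pik3r1, a regulatory subunit gene of phosphoinositide 3-kinase, measured 295 and 309 TPM against 206, 236 and 129 TPM (-0.71, SE 0.29, adjusted p = 0.676). Sesn3, a nutrient-sensing inhibitor of mTOR complex 1, was near 0 in wild type, at 0 and 0.257 TPM, and measured 2.34, 11.2 and 1.13 TPM in null libraries. These are transcript levels, and the activity of the kinase was not measured.

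ATF4 target genes, which follow amino acid stress and mTOR complex 1, had a median of 0.10. Chac1, a glutathione-degrading enzyme gene, measured 0.859 and 1.37 TPM against 10.6, 7.02 and 3.69 TPM (log2 difference 1.85, SE 0.43, limma adjusted p = 0.587). Cth, the cystathionine gamma-lyase gene, lay on the other side, at 10.8 and 7.99 TPM against 3.76, 1.76 and 4.71 TPM (-1.28, SE 0.38, adjusted p = 0.671). Atf4 itself differed by 0.40 (SE 0.19).

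Cell cycle genes were higher in null pads for all 25 members and 10 did not overlap, against 67.4% and 19.8% of all genes. Their median was 1.57, and 1 library carried most of it. Their summed level was 73.9 and 76.5 TPM against 92.8, 219 and 995 TPM in null libraries. Mki67, the marker of dividing cells, measured 2.73 and 5.11 TPM against 2.68, 16.7 and 79.5 TPM, so null library 1 lay at the wild-type level. Ube2c, the ubiquitin-conjugating enzyme gene of mitotic exit, was more even, at 10.0 and 5.86 TPM against 18.9, 29.9 and 49.2 TPM (log2 difference 1.85, SE 0.42, limma adjusted p = 0.587). Without null library 3 the median of the list was 0.58, and that of DNA replication genes went from 0.784 to 0.02.

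Replication-dependent histone genes followed the same library. Hist1h2bh, a histone H2B gene, measured 18.0 and 0 TPM against 28.3, 51.1 and 589 TPM, and Hist1h3c, a histone H3 gene, 5.20 and 5.38 TPM against 8.86, 29.8 and 238 TPM. These genes are near-copies of each other, so the share of each is uncertain. Null library 3 was several times higher than any other library for both.

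Many mitotic genes carry a promoter element called the cell cycle homology region. As the list moved together across the libraries, the 250 bases before the starts were searched for its core, TTTGAA, on both strands. It was found in 8 of the 20 tested members in the RefSeq table (40%), and in 13.1% of all tested genes in the table. Of the members with a match 2 are shown, and capitals mark the matches before Ube2c (chr2:164769679-164769928, plus strand, where the match reads on the opposite strand) and Cdk1 (chr10:69352913-69353162, minus strand, with 2 matches).
Ube2c: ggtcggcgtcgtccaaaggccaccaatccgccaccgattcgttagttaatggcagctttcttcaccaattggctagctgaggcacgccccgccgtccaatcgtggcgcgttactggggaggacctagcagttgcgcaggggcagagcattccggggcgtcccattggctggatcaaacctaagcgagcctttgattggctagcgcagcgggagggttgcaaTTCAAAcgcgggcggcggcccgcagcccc
Cdk1: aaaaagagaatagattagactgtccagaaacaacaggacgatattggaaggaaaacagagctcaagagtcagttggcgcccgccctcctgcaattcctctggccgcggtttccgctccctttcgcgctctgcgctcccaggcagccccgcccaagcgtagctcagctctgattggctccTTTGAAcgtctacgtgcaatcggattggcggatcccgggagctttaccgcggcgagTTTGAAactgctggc
Cdk1, the kinase gene that starts mitosis, measured 3.11 and 5.42 TPM against 5.65, 16.5 and 80.6 TPM in null libraries, and its 2 matches begin 71 and 15 bases before the start.

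Cytosolic ribosomal protein genes lay higher for 37 of 39 members, and 25 did not overlap, against 19.8% of all genes. The median was 0.492, and after median-of-ratios scaling it was 0.333 with 19 not overlapping, against 12.2% of all genes. Rpl3, the gene of a large-subunit protein, measured 359 and 335 TPM against 557, 715 and 746 TPM (log2 difference 0.94, SE 0.22, limma adjusted p = 0.587). Rps29, a small-subunit gene, measured 678 and 501 TPM against 978, 979 and 1120 TPM (0.81, SE 0.24, adjusted p = 0.671). These genes have many processed copies, which can take part of their reads. Without null library 3, 26 of the 39 did not overlap on the higher side, against 4948 of all 15780 genes, and the median was 0.42.

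Vessel and nerve genes showed no common direction. Endothelial genes had a median of -0.05 over 18 members. On the higher side 2 did not overlap and on the lower side 3, against 19.8% and 6.51% of all genes. Cldn5, the endothelial claudin gene, measured 27.2 and 15.3 TPM against 34.8, 33.1 and 36.8 TPM (log2 difference 0.74, SE 0.27), and the pericyte gene Rgs5 138 and 176 TPM against 110, 110 and 101 TPM (-0.54, SE 0.18). Blood genes were highest in null library 2, with Hba-a1, an alpha-globin gene, at 5450 TPM against 1592 to 2143 TPM elsewhere.

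The same comparison on the high-fat diet used other mice, so its values are independent of those above. Of its libraries, wild-type 2 and null 3 stood apart, with B cell genes summing to 799 and 1972 TPM against 35.3 to 156 TPM in the other 8 libraries of the series. No gene passed the test of the difference between the diets in the genotype effect, and 671 genes (4.25%) had an unadjusted p under 0.05. Of the 3118 genes that did not overlap on the higher side at low fat, 216 (6.93%) did so on the higher side at high fat, against 7.88% of all genes. Of the 1028 on the lower side, 113 (11.0%) did so at high fat, against 7.82% of all genes.

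The secretory and luminal structure lists had opposite signs on the 2 diets. At high fat the median difference was -1.0 for the secretory list, with 4 of 22 members higher, and -0.94 for the luminal structure list, with 0 of 19 higher. Without the 2 libraries that stood apart these medians were -0.85 and -0.42. The basal list was at -0.06 at high fat and at 0.19 without those libraries, against 0.73 at low fat. The cholesterol list was at 0.499 at high fat (0.338 without those libraries), against -0.504 at low fat. The muscle list had a median of 0.64 at high fat, on the same side as at low fat, and the mature adipocyte list was at -0.02.

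Chromosome 2, which carries Fap, held 132 genes with a p under 0.05 among 1252 tested (10.5%), against 4.57% to 8.77% on the other autosomes. On it, 54 genes (4.31%) did not overlap in the same direction on both diets, against 0.206% to 2.89% on the other autosomes. Metap1d, a mitochondrial methionine aminopeptidase gene and one of the 54, measured 14.2 and 13.1 TPM against 26.1, 35.2 and 25.5 TPM in null libraries. How the null allele was bred is not given in the sources used here, and whether linked sequence differs between the genotypes was not tested.

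**Figure D4:**
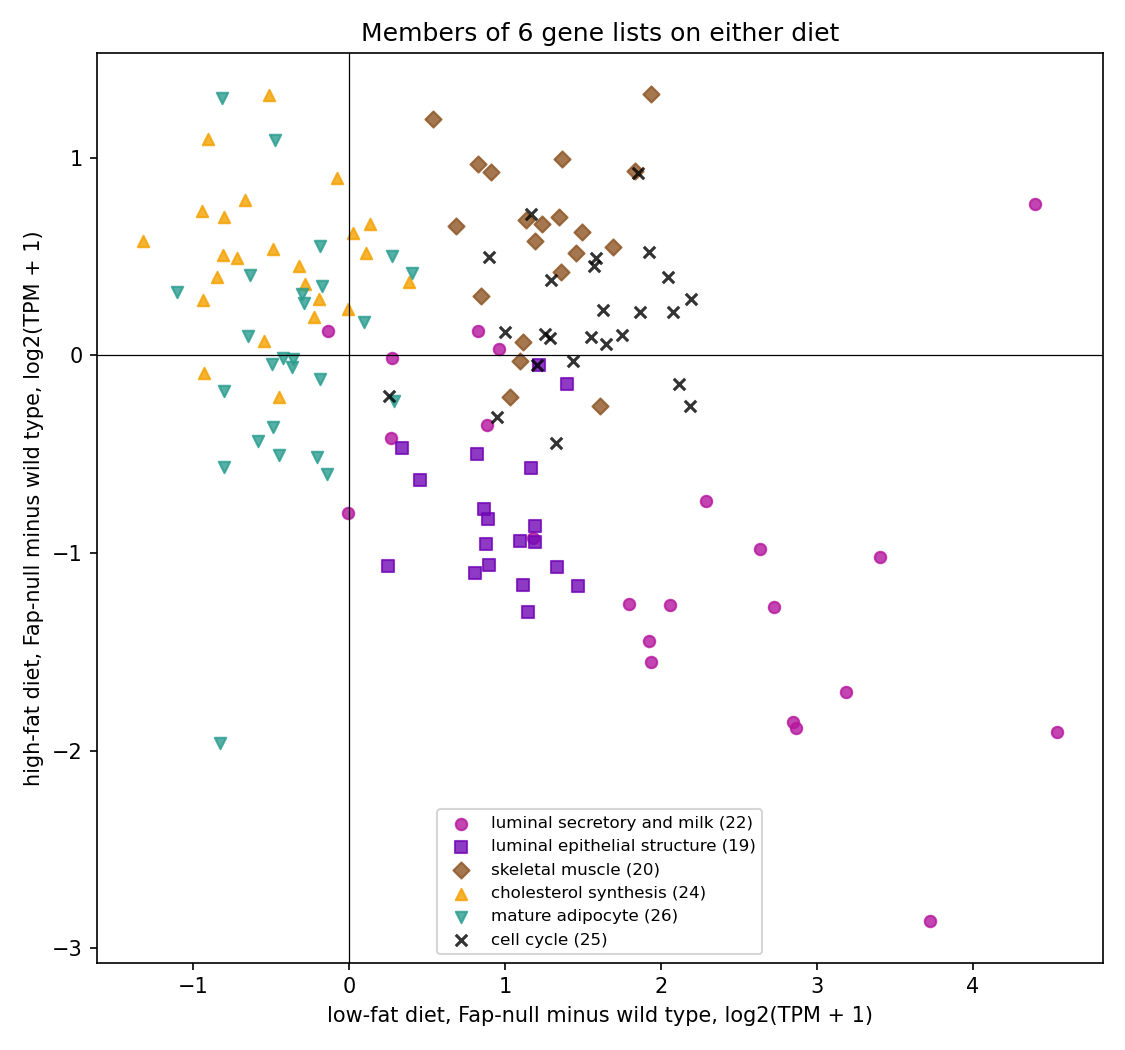
Null minus wild type on the log2(TPM + 1) scale at low fat (horizontal) and high fat (vertical) for each tested member of 6 gene lists. Luminal structure genes and 20 of the 22 secretory genes lie right of 0, and most lie below it (secretory medians 2.00 and -1.0, structure medians 1.10 and -0.94), cholesterol genes lie mostly left of 0 and above it (-0.504 and 0.499), and muscle genes lie mostly right of 0 and above it (1.21 and 0.64).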

How the data were processed

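Total RNA, depleted of ribosomal RNA, was sequenced from mouse mammary fat pads. The deposited values are log2(TPM + 1) per gene symbol and library, a scale read from the values, since they start at 0 and sum to 946103 to 954463 TPM per library. The tools kallisto and limma and the build GRCm38 are named per the submitters' processing notes, with no version or role stated there. One line without a symbol held at most 0.00905% of TPM and was left out.

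Genes with at least 1 TPM in 2 of the 5 low-fat libraries were fitted with limma 3.58.1 (R 4.3.3) with a mean-variance trend on those 5 libraries (3 residual degrees of freedom), two-sided, with Benjamini-Hochberg adjustment over 15780 genes. The diet comparison fitted 4 group means to 10 libraries. The pseudocount is that of the deposited values, and log2 differences understate changes of low genes. Simulated data with 200 changed genes served to check the fit. The changed genes were drawn from those with a mean log2(TPM + 1) above 3, and the noise was normal and independent. Under these settings the fit recovered 20.1% of log2 changes of 1, 92.5% of those of 2 and 99.7% of those of 4. These rates are not the power in the real data, whose genes need not follow these settings. On average 13.2 unchanged genes were called per draw, over 5 draws. Library pairs shared at most 1.27% of identical values. Symbols matched GENCODE M21 (GRCm38) once for 15064 genes.

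The comparison and the 47 gene lists (885 entries, 877 in the file, 833 tested) were chosen with earlier results of these data known. Named genes were the 15 largest differences per direction with at least 5 mean TPM and no overlap, the 10 smallest p, up to 6 members per list by smallest p, all passing over predicted genes, and Fap. Only some of these 296 genes are reported here. Gm10146, Metap1d, Cdk1, Mki67, Mtor, Col1a1, Adipoq, Fos, Nr4a2, Itga1 and the cell type markers were chosen after their values were seen, as was the choice of promoters and motifs. Alternatives covered scaling, mitochondrial transcripts, the pseudocount, the filter on low values, the fit and each library left out.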

Additional observations from a re-analysis of the deposited data

Results flagged for a closer look

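For 16 of 142 genes named in the text, the null and wild-type libraries did not overlap on either diet, and the null libraries lay on opposite sides. These 16 were picked for that trait, so their opposite signs follow from the choice. Over all genes tested, 290 (1.84%) lay apart in opposite directions and 329 (2.08%) in the same direction. Named genes were partly chosen for no overlap at low fat, so 1.84% is not their background. Of the 3118 genes apart on the higher side at low fat, 237 lay apart on the lower side at high fat. Of the 1028 on the lower side, 53 lay apart on the higher side. The difference between the diets, low-fat minus high-fat genotype difference on the log2(TPM + 1) scale, was tested as the interaction in limma over 10 libraries. It passed for none of the 16, with adjusted p of at least 0.909. Wild-type 2 and null 3 of the high-fat diet stood apart, so each value is followed by the one without them.

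In the secretory lineage the interaction was 4.00 (SE 0.99, without them 3.90) for Csn3, the kappa-casein gene. Elf5, a transcription factor of that lineage, gave 3.06 (SE 0.72, without them 2.66). Folr1 gave 3.32 (SE 0.76, without them 3.34). Csn3 measured 223 and 63.1 TPM against 1306, 1059 and 358 TPM at low fat, and 497 and 391 TPM against 353, 137 and 124 TPM at high fat, so the order of the genotypes turned over.

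For junction and adhesion genes of the epithelium it was 2.28 (without them 1.70) for Epcam, 2.63 (1.94) for Cldn3 and 2.13 (1.57) for Tjp3, a tight junction scaffold gene. It was 3.45 (2.91) for Fgg, 2.36 (1.78) for the basal factor Trp63 and 2.36 (1.83) for Sox10, a factor of nerve sheath and of mammary progenitors. For genes of innate sensing it was 2.60 (2.32) for Cd14 and 3.67 (2.94) for Lcn2. These genes all lay higher in null pads at low fat and lower at high fat. At high fat Trp63 lay only just apart, at 10.8 and 11.0 TPM against 10.7, 6.52 and 1.90 TPM. So did Sox10, at 14.4 and 10.8 TPM against 10.7, 8.73 and 1.38 TPM.

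In the other direction it was -2.12 (without them -2.95) for Lep. Lep measured 387 and 507 TPM against 133, 342 and 346 TPM at low fat, and 277 and 865 TPM against 990, 1492 and 1192 TPM at high fat. Itga7, an integrin gene of muscle, gave -1.20 (-1.42). On the first side again, Tgfb2 gave 2.24 (1.81), Src 0.97 (1.05) and Akt1s1 1.27 (1.03). For Src the high-fat groups were barely apart, at 16.4 and 16.2 TPM against 11.2, 16.0 and 15.8 TPM.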

How the results depend on the processing

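The count of called genes was 1. It was 2 after median-of-ratios scaling, 1 without mitochondrially encoded transcripts, 0 with a pseudocount of 0.1, 0 with no filter on low values, 0 with a minimum of 5 TPM, 0 with all 10 libraries in the fit, 6 without the mean-variance trend, 3 with library weights and 0 without any 1 of the 5 libraries. For the counts of 0 the unadjusted p was under 0.05 for 548 to 1556 genes. The cause of these changes was not tested. At p under 0.05, 888 genes higher and 257 lower became 546 and 527 after median-of-ratios scaling, and 132 lower with all 10 libraries. Without 1 library they ran from 309 (without wild-type library 2) to 1225 higher and from 147 (without wild-type library 1) to 331 lower. Genes without overlap numbered 1919 higher and 2013 lower after that scaling, and from 3670 to 6771 higher and from 1663 to 2905 lower without 1 library, where fewer libraries overlap less often by construction. Interaction calls were 0 in each of 4 fits.

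The replicate numbers were not shown to pair the libraries (correlation of deviations -0.031 and 0.003 over 2 numbers), and with them as a replicate block 0 genes were called. Of 1981 values of named genes under these alternatives, 3 changed sign, all with 1 library left out, 5 gained a call and 10, all of Gm10146, lost it. Col1a1 lay between -0.541 (without null library 2) and 0.458 (without null library 1) and was at 0.00338 without wild-type library 2, and Adipoq lay between -0.614 (without wild-type library 1) and 0.241 (without wild-type library 2). Of 469 list medians, 32 moved by more than the SD between libraries. The medians of 15 lists changed sign without some 1 library, among them fatty acid synthesis (0.13 without wild-type library 1) and collagens (-0.09 without null library 3). With no read numbers, precision at low TPM cannot be judged.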

Other observations

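Lists of lymphoid and other cells gave small values. B cell genes summed to 35.3 to 69.2 TPM over the 5 low-fat libraries, with a median difference of 0.27 over 7 members. T and NK cell genes had a median of 0.14 over 13 members, among them Ncr1, an activating receptor gene of NK cells, at 3.47 and 2.97 TPM against 8.19, 8.78 and 4.83 TPM. Plasma cell genes had a median of 0.28, MHC class II and dendritic cell genes 0.40, mast cell genes -0.15 and Schwann cell genes -0.20. Chemokine genes had a median of 0.24, complement genes 0.09 and pericyte genes 0.18. The 6 lymph node stroma genes held both Glycam1 and Cxcl13, with differences of opposite sign, and the 5 tested skin genes summed to 16.4 to 53.1 TPM.

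Clock genes had a median of 0.21 over 17 members. On the higher side 3 did not overlap and on the lower side 1, against 19.8% and 6.51% of all genes. Glucocorticoid and fasting genes had a median of 0.03 over 13 members. A pair of single genes outside these groups lay lower without overlap. Pcbp3, an RNA-binding gene, measured 14.7 and 12.2 TPM against 2.53, 4.91 and 4.12 TPM (log2 difference -1.60, SE 0.31), and Sftpd, the gene of surfactant protein D, 15.1 and 10.3 TPM against 4.60, 3.96 and 0.186 TPM (-2.07, SE 0.69). Their limma adjusted p values were 0.562 and 0.671.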
